A study of Arabidopsis thaliana with 9 samples.

Results

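Alpha-expansins are plant cell wall proteins that loosen the wall at acid pH without cutting its polymers. They let cells enlarge as turgor stretches the wall, and plants carry them as a large gene family whose members are active in different organs and cell types. EXPA7 and EXPA18 are known as expansins of root hairs, the tubular outgrowths of root epidermal cells. The expansin superfamily also holds beta-expansins (EXPB) and expansin-like proteins (EXLA and EXLB). The genes described here are the 8 alpha-expansins EXPA4, EXPA7, EXPA8, EXPA9, EXPA15, EXPA16, EXPA18 and EXPA20 of Arabidopsis thaliana. They were chosen by name and annotation: they are all the alpha-expansins with a probe set annotated to a single gene, of 10 such genes on the array, once EXPA21 and EXPA24, which lie in a stretch of chromosome 5, are left out. That stretch was selected on the signal differences between the mutant groups. Each gene had 1 probe set, so no choice between probe sets was needed, and all 8 were tested among 22746 probe sets. The RefSeq annotation names 25 alpha-expansin loci, so most of the family was not analysed here.

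Total RNA of whole plants of the Col-0 strain, kept under constant light at 21 ºC on plates of Murashige and Skoog salts until day 35, was hybridised to 9 ATH1 arrays. The double transformant (3 arrays) has Columbia as its source and no HDA6 mutation in its labels, which do not say what it was transformed with. The null mutant (3 arrays) and the amino acid substitution mutant (3 arrays) carry an EMS-induced mutation of HDA6, a histone deacetylase that acts in gene silencing. Both name rts1-1 as their source, and the labels do not say whether these mutants also carry the transgenes of the double transformant. At night the humidity was 35% for double transformant 1, whereas 53% is given for all other arrays. The titles of double transformant 1, null mutant 1 and substitution 3 end in rpt. Whether a group's arrays stand for separately grown plants is not stated, and the p-values then measure only the spread between arrays, which may be technical.

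The median signal per array ran from 31.8 to 36.8. Double transformant 3 and null mutant 3 stood apart from the other arrays, with the lowest mean correlations (0.946 and 0.944, against 0.954 to 0.967). They also had the most 3'-biased GAPDH control, by the ratio of its 3' to its 5' signal (2.15 and 1.95, against 1.38 to 1.82). Each also had the lowest mean correlation within its own group. It was 0.958 for double transformant 3, against 0.965 and 0.967 for double transformant arrays 1 and 2. For null mutant 3 it was 0.947, against 0.954 and 0.956 for null mutant arrays 1 and 2, which were thus also below double transformant 3. Calls that were lost without both arrays are given with and without them. In RNA of whole plants, fewer cells of a type and less RNA per cell cannot be told apart.

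The 8 genes fell into a readily detected set and a set near background. EXPA8, EXPA4 and EXPA15 had signals above the array's own median on all 9 arrays, and EXPA9 on 7 of 9. EXPA9 was under the median on double transformant 2 (20.8 against 31.9) and double transformant 3 (27.0 against 34.5), and above it on every mutant array. Its place in the readily detected set thus rests partly on the arrays where it was higher. EXPA20, EXPA16, EXPA18 and EXPA7 lay below the array's own median on all 9. The low set also reached 4.03 or less, the 20th percentile of all signals in the table, on 2, 2, 5 and 6 arrays in that order. Values that low are close to background and have little meaning as levels.

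EXPA8 (AT2G40610) was the gene that passed the test in both mutant groups. Its signal was 274, 129 and 157 on double transformant arrays 1, 2 and 3. It was 450, 442 and 400 on the null mutant arrays and 577, 547 and 554 on the substitution arrays. The 3 groups did not overlap, and every mutant array lay above every double transformant array. The spread was wide in the double transformant (187 ± 77.1, SD, n = 3) and narrow in the null mutant (431 ± 27.2) and the substitution group (559 ± 15.7). Mean signals were 2.30 times as high in the null mutant as in the double transformant and 2.99 times as high in the substitution group.

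EXPA9 (AT5G02260) was ordered in the same way. Its signal was 32.6, 20.8 and 27.0 in the double transformant, 45.4, 58.4 and 49.5 in the null mutant, and 93.5, 82.3 and 84.4 in the substitution group. Again no group overlapped another. The means were 26.8 ± 5.91, 51.1 ± 6.65 and 86.7 ± 5.94 (SD, n = 3), which put the null mutant at 1.91 times and the substitution group at 3.24 times the double transformant.

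EXPA4 (AT2G39700) and EXPA15 (AT2G03090) differed less. EXPA4 was at 72.8, 54.4 and 64.3 in the double transformant, 98.5, 76.6 and 61.3 in the null mutant, and 99.5, 103 and 118 in the substitution group. All substitution arrays lay above the range of the double transformant, as did null mutant 1 and null mutant 2, while null mutant 3 lay within it. EXPA15 was at 39.8, 35.0 and 50.7 in the double transformant, 111, 55.0 and 45.8 in the null mutant, and 72.6, 81.9 and 73.5 in the substitution group. Its null mutant mean of 70.7 ± 35.4 was drawn up by null mutant 1, while the substitution arrays sat together at 76.0 ± 5.13, all above the double transformant.

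**Figure D1:**
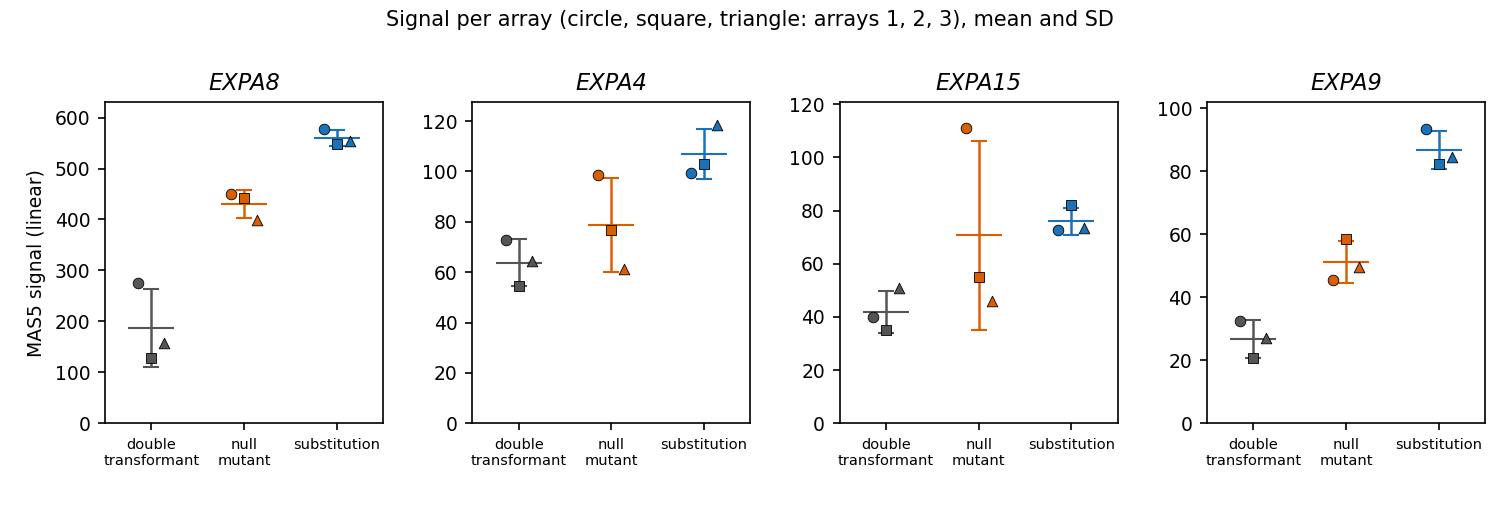
MAS5 signal (linear scale, each panel from 0) of the 4 readily detected alpha-expansins on each of the 9 arrays, by group; horizontal bars are group means and error bars are SD over 3 arrays. EXPA8 and EXPA9 step up from the double transformant to the null mutant and on to the substitution group without overlap, whereas EXPA15 has a single high null mutant array at 111.

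Among the genes near background were the 2 root hair expansins. EXPA7 (AT1G12560) was at 7.11, 7.79 and 2.86 in the double transformant, 3.16, 1.13 and 8.99 in the null mutant, and 2.47, 1.54 and 0.584 in the substitution group. The substitution arrays all lay below the double transformant arrays, but at signals under 4.03. EXPA18 (AT1G62980) was at 2.18, 6.24 and 2.19, then 0.980, 3.31 and 6.52, then 6.65, 7.93 and 2.59 in the same groups, which overlapped throughout.

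EXPA16 (AT3G55500) was at 16.5, 12.2 and 4.38 in the double transformant, 2.31, 10.8 and 3.43 in the null mutant, and 6.52, 15.5 and 6.92 in the substitution group. The groups overlapped. EXPA20 (AT4G38210) was at 10.5, 12.4 and 6.56 in the double transformant, 2.64, 7.49 and 2.96 in the null mutant, and 10.3, 15.6 and 14.04 in the substitution group. Here the mutant groups did not overlap each other, and both overlapped the double transformant. The genes left out by the rule were also near background. EXPA21 ran from 0.320 to 16.0 over the 9 arrays and EXPA24 from 0.324 to 6.63, with 8 and 7 arrays at or under 4.03.

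**Figure D2:**
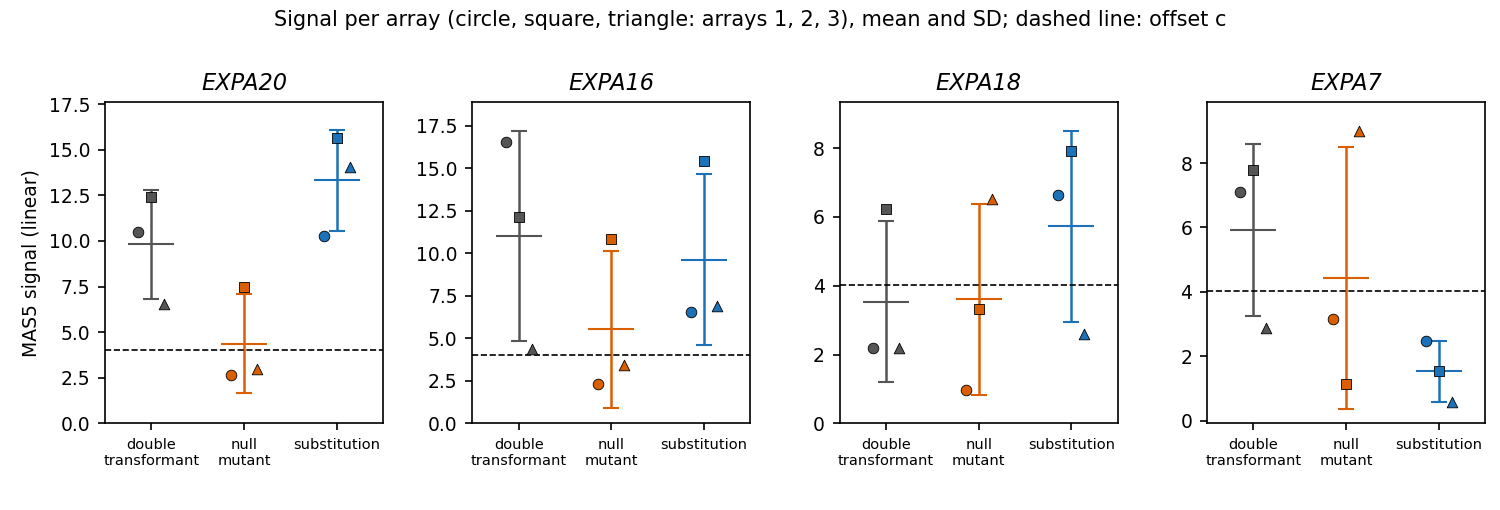
MAS5 signal (linear scale) of the 4 alpha-expansins near background on each of the 9 arrays, by group, with group means and SD over 3 arrays; the dashed line is the 20th percentile of all signals, 4.03. Arrays of a group scatter across the line for EXPA18, and the 3 substitution arrays of EXPA7 lie below it.

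The first comparison asked which of these genes differ when HDA6 is lost. Differences were fitted as log2(signal + 4.03), a scale that understates changes of genes near or below that offset. EXPA8 rose in the null mutant by 1.26 ± 0.21 on this scale (SE, limma adjusted p = 0.0187, 95% interval 0.79 to 1.72), higher on 3 of 3 arrays. It was the 1 call among the 8 genes, against 0.659% of all probe sets called higher and 0.101% called lower. EXPA9 differed by 0.85 ± 0.20 (limma adjusted p = 0.0961), also with 3 of 3 arrays above the double transformant, and did not pass. These 2 genes were the ones whose null mutant arrays all lay above the double transformant, as did 8.19% of all probe sets. None of the 8 lay wholly below it, as did 5.49% of all probe sets.

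The remaining differences in the null mutant were 0.62 ± 0.28 for EXPA15 (95% interval 0.0080 to 1.23, limma adjusted p = 0.442), 0.27 ± 0.19 for EXPA4 (adjusted p = 0.648) and -0.74 ± 0.35 for EXPA20 (-1.52 to 0.032, adjusted p = 0.472). EXPA16 differed by -0.66 ± 0.46, EXPA7 by -0.30 ± 0.39 and EXPA18 by -0.010 ± 0.39, with adjusted p from 0.653 to 0.996. Of the 8 log2 differences, 4 were positive and 4 negative, with a median of 0.13 against 0.019 over all probe sets. The positive values were those of the 4 readily detected genes, a set that EXPA9 entered partly through its higher mutant signals. Single arrays moved several of these uncalled values. EXPA15 was at 0.25 when null mutant 1 was left out, and between 0.51 and 0.86 when any other array was. Without the arrays titled rpt, null mutant 1 among them, EXPA15 was at 0.23. EXPA4 was at 0.11 with null mutant 1 left out, at 0.17 with double transformant 2 left out and at 0.43 with null mutant 3 left out. Without double transformant 3 and null mutant 3 together, EXPA4 was 0.44, EXPA15 was 0.99 and EXPA7 was -0.91.

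The call of EXPA8 in the null mutant depended on single arrays. Leaving out double transformant 2 gave a limma adjusted p of 0.0593, double transformant 3 gave 0.104, null mutant 1 gave 0.0839 and null mutant 3 gave 0.0615, with log2 differences from 1.03 to 1.57 over all 9 fits without a single array, and it was 0.221 (log2 difference 1.23) without double transformant 3 and null mutant 3 together. The highest of these differences, 1.57, came without double transformant 1, the array with the other night humidity and the highest EXPA8 signal of its group.

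The second comparison put the substitution mutant against the same double transformant arrays, so both comparisons share their controls. EXPA8 rose by 1.63 ± 0.21 on the log2 scale (limma adjusted p = 0.00459, 95% interval 1.17 to 2.099) and EXPA9 by 1.57 ± 0.20 (adjusted p = 0.00414, 1.14 to 2.01), each on 3 of 3 arrays. These were the 2 calls among the 8 genes, against 0.62% of all probe sets called higher and 0.127% called lower. EXPA4 differed by 0.71 ± 0.19 (limma adjusted p = 0.126, 0.31 to 1.12) and EXPA15 by 0.81 ± 0.28 (adjusted p = 0.259, 0.21 to 1.42). Neither passed, although all 3 substitution arrays of each lay above the double transformant.

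With EXPA8 and EXPA9, 4 of the 8 genes were thus wholly above the double transformant, as were 10.6% of all probe sets. EXPA7 was wholly below it, as were 8.6% of all probe sets, with a log2 difference of -0.81 ± 0.39 (limma adjusted p = 0.446). EXPA18 differed by 0.36 ± 0.39, EXPA20 by 0.34 ± 0.35 and EXPA16 by -0.11 ± 0.46, with adjusted p from 0.788 to 0.969. Over the 8 genes, 6 differences were positive and 2 negative, and the median was 0.54 against -0.0031 over all probe sets. Without double transformant 3 and null mutant 3 together, EXPA16 was -0.48 and EXPA20 was 0.16.

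The rise of EXPA9 in the substitution group was called in all 22 alternative settings tried, with limma adjusted p up to 0.0424 and log2 differences from 1.27 to 1.73. That of EXPA8 was called in 21 of 22 and missed the threshold without double transformant 3 and null mutant 3 together (limma adjusted p = 0.0634, log2 difference 1.55).

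**Figure D3:**
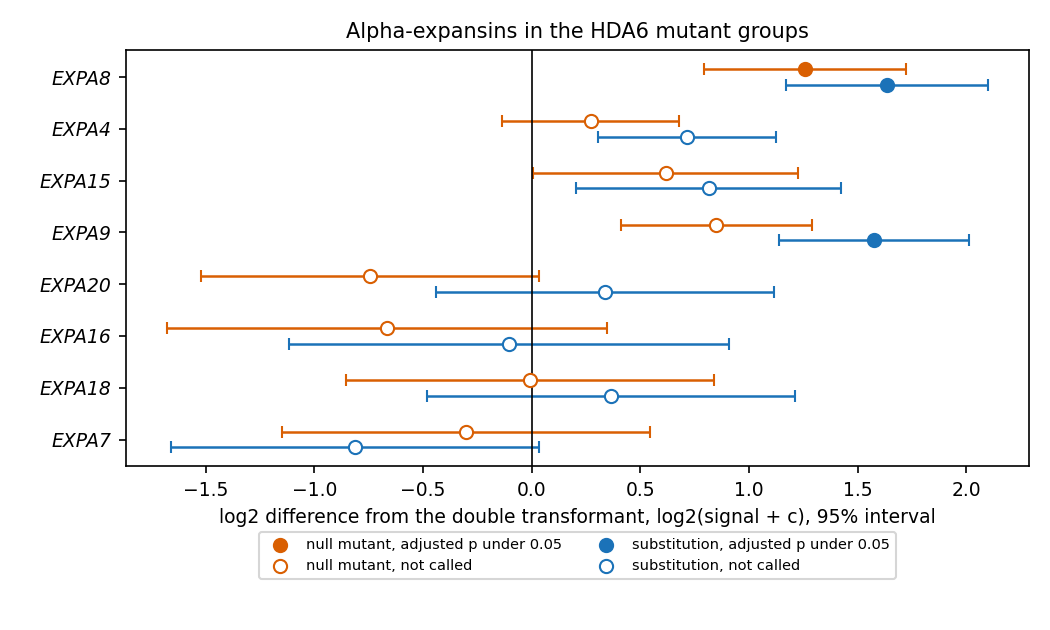
Log2 difference from the double transformant, on the log2(signal + 4.03) scale, for each of the 8 alpha-expansins in the null mutant (orange) and the substitution group (blue), with 95% intervals from limma; filled points have an adjusted p under 0.05. EXPA8 is filled in both groups and EXPA9 in the substitution group (1.57), and the intervals of the 4 genes near background all include 0.

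The chromosome 5 stretch that defines the left-out genes was found by setting the null mutant against the substitution mutant, so for that contrast the values are described and not tested. Signals of EXPA8, EXPA9, EXPA4 and EXPA20 were lower on all 3 null mutant arrays than on all 3 substitution arrays. Of all probe sets, 5.6% were separated in this direction and 6.06% in the other. The log2 differences, null mutant minus substitution, were -0.38 for EXPA8, -0.72 for EXPA9, -0.44 for EXPA4 and -1.08 for EXPA20. The others were -0.20 for EXPA15, -0.56 for EXPA16, -0.37 for EXPA18 and 0.51 for EXPA7, with overlapping arrays. For EXPA20 the size depended on the offset, -1.51 with the offset divided by 4 and -0.53 with the offset raised by a factor of 4.

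Correlations between the genes were computed for all pairs. Over the 9 arrays the log2 signals of EXPA8 and EXPA9 correlated at r = 0.945, a description that includes the differences between the 3 groups. After each group's mean was taken off, r was 0.782, over the same 9 arrays. The same figures were 0.847 and 0.779 for EXPA4 and EXPA15. EXPA8 with EXPA15 gave 0.714 and 0.135, and EXPA9 with EXPA15 gave 0.654 and -0.190, so those pairs had group differences in common but little within groups. EXPA7 and EXPA18, the root hair pair, gave 0.180 and 0.612 at signals near background. Pairs with genes near background gave the values farthest from 0 once group means were taken off, -0.925 for EXPA4 with EXPA18 (-0.140 before) and 0.888 for EXPA16 with EXPA20 (0.789 before). All pairs share arrays and scaling.

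**Figure D4:**
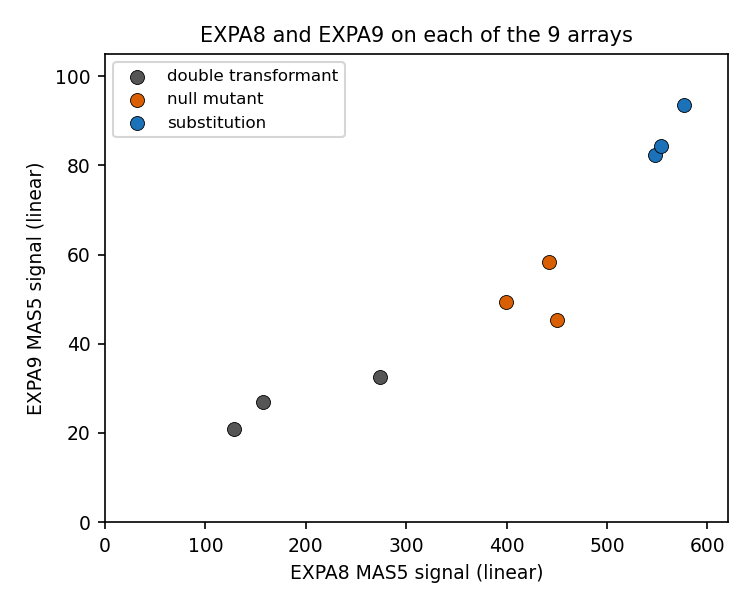
EXPA9 signal against EXPA8 signal (MAS5, linear axes from 0) on each of the 9 arrays, coloured by group. The double transformant arrays lie at the lower left, the null mutant arrays in the middle and the substitution arrays at the upper right, with EXPA8 at 547 or more and EXPA9 at 82.3 or more in the last.

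Loci with the most similar profiles were sought among 5939 loci (5940 for the genes near background) with a mean signal above the median probe set, by Pearson's r of log2 signals over the 9 arrays. For EXPA8 these were RALFL34, which encodes a RALF-like signalling peptide (r = 0.977), AT1G15010 (0.973) and AT4G29200 (0.966). AT4G29200 headed the list for EXPA9 as well (0.9750), followed by AT2G29320 (0.966) and AT3G10610 (0.963). The mean signal of AT4G29200 was 3.04 in the double transformant, 53.5 for the null mutant and 168 for the substitution group, and that of RALFL34 was 330, 420 and 458. The search picks loci by likeness to EXPA8 and EXPA9, so their group order was set by the choice. The double transformant mean of AT4G29200 lay under 4.03, and it passed the filter on mean signal through the mutant groups.

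For EXPA4 the closest loci were TBL36, of a family that acetylates wall polysaccharides (0.925), AT1G04770 (0.924) and AT1G15260 (0.923). For EXPA15 they were AT4G23880 (0.943), AT5G02550 (0.935) and AT5G27930 (0.933). The genes near background gave AT3G12050, AT2G45990 and AT2G34310 for EXPA7 (0.908 to 0.875), HVA22C, AT3G01920 and AT4G27900 for EXPA18 (0.898 to 0.877), AT1G04850, AT2G41040 and AT1G60770 for EXPA16 (0.961 to 0.931), and AT1G74790, AT5G03610 and AT3G60450 for EXPA20 (0.956 to 0.936). These values describe 9 arrays that fall into 3 groups and carry no test.

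The 8 genes lie apart in the genome. The nearest loci on each side with a probe set annotated to a single gene, in the gene order of TAIR10.1, made 16 neighbours. Loci without such a probe set were passed over, so a neighbour is not always the adjacent gene. Of the 16, limma called 0 in either mutant group (3 for the null mutant and 1 for the substitution group at an unadjusted p under 0.05, as had 11.1% and 11.8% of all probe sets). The neighbours of EXPA8 differed by -0.13 ± 0.15 (AT2G40600) and -0.31 ± 0.29 (AT2G40620) in the null mutant, and by -0.020 ± 0.15 and -0.22 ± 0.29 in the substitution group (SE, limma). Those of EXPA9 differed by 0.012 ± 0.10 (AT5G02240) and 0.32 ± 0.19 (AT5G02280) in the substitution group.

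Other wall genes were read from lists of symbols. In these and the later lists, a gene counts as measured if its name was found among probe sets annotated to a single gene. Listed genes not found in this way may still have a probe set on the array, so the measured genes do not stand for the whole list. Of 10 other expansins 8 were measured, and 1 was called lower in the substitution group. EXLA1, an expansin-like gene, was at 686 ± 436 in the double transformant and 91.9 ± 62.4 in the substitution group (SD, n = 3), which differed by -2.85 ± 0.47 on the log2 scale (limma adjusted p = 0.0221), opposite in direction to EXPA8 and EXPA9. Of all probe sets, 0.127% were called lower there. EXLA1 was not called without double transformant 2 (limma adjusted p = 0.0828), double transformant 3 (0.0960), substitution 1 (0.114) or substitution 2 (0.113), nor with both arrays that stood apart left out (0.124). Its log2 differences in the fits with arrays left out ran from -3.35 to -2.37. In the null mutant limma called 0 of the 8, with 3 at an unadjusted p under 0.05 (11.1% of all probe sets). EXLA1 was also lower there, at 208 ± 53.1, but its difference of -1.54 ± 0.47 did not pass (limma adjusted p = 0.216). Its null mutant arrays lay wholly below the double transformant, as did 5.49% of all probe sets. EXPB3, a beta-expansin, was at 40.9 ± 3.23 in the double transformant, 98.6 ± 45.7 for the null mutant and 96.9 ± 14.5 for the substitution group. Its differences of 1.11 ± 0.26 and 1.16 ± 0.26 did not pass (limma adjusted p = 0.0900 and 0.0724). Both mutant groups lay wholly above the double transformant, as did 8.19% (null mutant) and 10.6% (substitution) of all probe sets. The list's median log2 difference was 0.23 for the null mutant and 0.029 for the substitution group, against 0.019 and -0.0031 over all probe sets.

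Xyloglucan endotransglucosylases, enzymes that cut and rejoin the xyloglucan chains between cellulose fibrils, mostly had lower means in the mutants. Of 33 listed, 10 were measured, and 8 of these differed negatively in each mutant group, with medians of -0.96 for the null mutant and -0.24 for the substitution group (0.019 and -0.0031 over all probe sets). XTH33 fell in the substitution group by 2.89 on the log2 scale, from 220 ± 125 to 24.1 ± 11.8 (SD, n = 3, limma adjusted p = 0.0126). This was the 1 call of the list there, against 0.127% of all probe sets called lower. By limma 3 of the 10 had an unadjusted p under 0.05 there, against 11.8% of all probe sets. XTH33 was not called without double transformant 2 (limma adjusted p = 0.0597), double transformant 3 (0.0748), substitution 1 (0.0754) or substitution 2 (0.0745), nor with both arrays that stood apart left out (0.118). Its log2 differences in the fits with arrays left out ran from -3.40 to -2.48. In the null mutant limma called 0 of 10, with 6 at an unadjusted p under 0.05, against 11.1% of all probe sets. The smallest p there belonged to XTH33 (-1.69 ± 0.43, limma adjusted p = 0.126) and EXGT-A3 (-1.01 ± 0.27, adjusted p = 0.156). XTH32, among the 6, differed in the other direction, by 0.66 ± 0.24 (limma adjusted p = 0.308), and by 0.49 ± 0.24 in the substitution group. It lay wholly above the double transformant in both mutant groups, as did 8.19% and 10.6% of all probe sets. Some negative differences were small, such as -0.026 for XTH20, -0.14 for XTH21 and -0.18 for XTH19 in the substitution group. XTH21 and XTH26 had means under 4.03 in all groups.

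**Figure D5:**
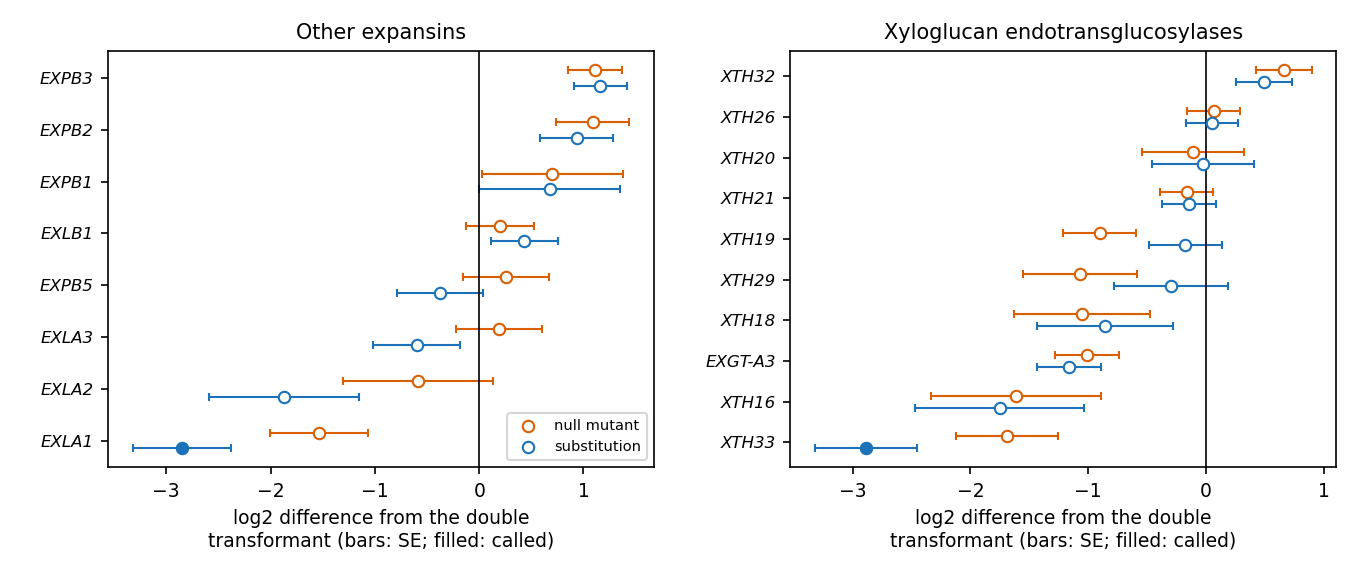
Log2 difference from the double transformant, on the log2(signal + 4.03) scale with SE from limma, for 8 other expansins (left) and 10 xyloglucan endotransglucosylases (right) in the null mutant (orange) and the substitution group (blue). Filled points, EXLA1 at -2.85 and XTH33 at -2.89 in the substitution group, have an adjusted p under 0.05. The beta-expansins EXPB3, EXPB2 and EXPB1 lie to the right of 0 in both groups, whereas EXPB5 lies to the left in the substitution group. EXPB2 had a double transformant mean of 2.55, under 4.03.

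The other lists held no calls in either group by limma. In the growth hormone list of auxin, brassinosteroid and gibberellin genes, 8 of 58 were measured and 2 (null mutant) and 3 (substitution) had an unadjusted p under 0.05, against 11.1% and 11.8% of all probe sets. IAA29, an auxin-responsive regulator, differed by 1.48 ± 0.56 and 1.44 ± 0.56 (limma adjusted p = 0.342 and 0.330), and GID1B, a gibberellin receptor gene, by 0.86 ± 0.34 and 0.81 ± 0.34 (adjusted p = 0.365 and 0.373). Cellulose synthesis and pectin remodelling had 3 measured genes each, with 0 at an unadjusted p under 0.05. COB, needed for oriented cellulose deposition, differed by -0.22 ± 0.17 and -0.19 ± 0.17. GH9A3 differed by 0.32 ± 0.43 and 0.087 ± 0.43. Among the pectin genes ADPG1, a polygalacturonase gene, differed by 0.84 ± 0.51 in the null mutant, PME61 by -0.054 ± 0.45 in the substitution group, and ATPMEPCRB by 0.31 ± 0.37 and -0.043 ± 0.37. Of the root hair genes listed beside EXPA7 and EXPA18, 2 of 64 were measured, and of those for root hair cell fate 1 of 13. SCN1, which restricts where hairs emerge, differed by 0.21 ± 0.11 and 0.037 ± 0.11, XTH26 had mean signals of 0.528, 0.737 and 0.695 in the double transformant, null mutant and substitution group, and TRY, a regulator of epidermal cell fate, differed by -0.74 ± 0.51 and -0.064 ± 0.51. All of these had 0 at an unadjusted p under 0.05.

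Organ markers were summed per array, because whole plants mix organs that use different expansins. Root markers (2 of 44 measured, almost all of the sum from PYK10) ran from 789 to 1133 in the double transformant, 828 to 1286 for the null mutant and 991 to 1295 for the substitution group. Leaf and photosynthesis markers (4 of 41) ran from 12125 to 16829, 11276 to 18562 and 12260 to 15756. Pollen and anther markers (8 of 37, ANX1 at or under 4.03 on all arrays) ran from 99.7 to 149, 78.8 to 115 and 85.8 to 126. All 3 sums overlapped between groups.

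The summed signals of flower and of seed markers, in contrast, were higher on every mutant array than on any double transformant array, like EXPA8 and EXPA9. Flower and fruit markers (4 of 22, CLV3 at or under 4.03 on all arrays) summed to 23.2 to 42.2 in the double transformant, 52.0 to 70.9 in the null mutant and 50.1 to 57.3 in the substitution group. Seed markers (3 of 27) summed to 17.2 to 43.5, 54.4 to 162 and 80.8 to 138. Most of these sums came from SPT, a regulator of carpel development, and PAP85, a seed storage protein gene. SPT had means of 26.1, 41.6 and 44.3 in the double transformant, null mutant and substitution group, with both mutant groups wholly above. PAP85 had means of 18.5, 84.2 and 95.9, wholly above in the substitution group and overlapping in the null mutant. UFO was wholly above in the null mutant alone, but at low signals. It ran from 0.779 to 1.91 in the double transformant, all under 4.03, and from 2.58 to 11.8 in the null mutant. CLV3, INO, OLEO3 and AtLEA4-1 overlapped the double transformant in both mutant groups. INO and AtLEA4-1 also had double transformant means under 4.03 (3.84 and 3.00). Among all probe sets, 8.19% (null mutant) and 10.6% (substitution) lay wholly above the double transformant. In both lists limma called 0 genes in either mutant group, with 2 and 2 at an unadjusted p under 0.05 for the null mutant and 1 and 1 for the substitution group, against 11.1% and 11.8% of all probe sets. Their part in the rises of EXPA8 and EXPA9 was not tested.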

How the data were processed

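The deposited table holds linear MAS5 signals (intensity) made by the authors, with MAS5 and GCOS named, without versions, per the submitters' processing notes. The trimmed mean was 100 on every array, so arrays had been scaled before deposit. No detection calls were used. Of 22810 probe sets, 64 controls were left out. Signals became log2(signal + c) with c = 4.03, and all 9 arrays entered 1 fit in limma 3.58.1 (R 4.3.3) with an intensity trend. Benjamini-Hochberg adjusted p under 0.05 over 22746 probe sets counted as a call. The number of arrays limits the precision. The fit was tested on simulated data with independent noise and with changes placed only in the brighter probe sets. That test does not cover genes near background or arrays that stand apart.

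Groups and replicate numbers came from the titles. Arrays of the same number deviated from their group means with correlations of -0.0409 to 0.154, so numbers were not taken as pairs. Names came from the platform annotation, updated with RefSeq (TAIR10.1): 13513 probe sets had 1 gene, 503 several and 8730 none. All 8 genes have the plain suffix of a probe set for a single transcript, but hybridisation of related expansins was not tested.

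The genes, lists and alternatives were chosen with earlier results of these data known. The 8 genes were all named, with 3 most similar loci each, and from each list the called genes or the 2 with the smallest p. Promoter motifs were not analysed here, for lack of sequence. Alternatives were quantile and median scaling, other offsets, removal of dim probe sets, other variance priors, array weights, blocks for replicate number or the title suffix rpt, and fits without some arrays. The fit without both double transformant 3 and null mutant 3, and all fits of EXLA1 and XTH33 without some arrays, were added after seeing the data.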

Additional observations from a re-analysis of the deposited data

Results flagged for a closer look

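EXPA20 was singled out because every null mutant array lay below the double transformant mean of log2 signals and every substitution array above it. Its log2 difference was -0.74 for the null mutant and 0.34 for the substitution group. Neither passed the test against the double transformant, the difference between the mutant groups was not tested, and its signals were between 2.64 and 15.6 on all 9 arrays, near background. Groups of 3 arrays were too small for a check of single outlying values.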

How the results depend on the processing

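Of the 16 log2 differences of the alpha-expansins from the double transformant, 14 kept their sign in every alternative. In 327 of 344 refits they also kept their side of the threshold. These counts say little about robustness. Several alternatives, such as other variance priors, blocks or leaving out an array of the group not compared, cannot change the log2 difference. Most of the 16 differences were uncalled and far from the threshold. EXPA8 in the null mutant, which was called, lost its call in 7 of 22 alternatives. The exceptions in sign were both uncalled and near background. EXPA18 in the null mutant (-0.010) was 0.0022 with an offset of 4 c, 0.14 without the arrays titled rpt and between -0.28 and 0.26 without single arrays. EXPA16 in the substitution group (-0.11) was 0.30 without the arrays titled rpt and between -0.48 and 0.17 without single arrays. The cause was not tested. EXPA8 in the null mutant also missed the threshold without an intensity trend (limma adjusted p = 0.0932) and with only the 6 arrays compared (0.0907), was just under it with median centring (0.04999), and ranged from 0.000166 to 0.221 over its 22 alternatives. EXPA4 in the substitution group passed with array weights alone (limma adjusted p = 0.0448). Null mutant minus substitution, untested, changed sign for EXPA15 alone (-0.58 to 0.045). The 4 genes near background were removed by the filter on dim probe sets, and no gene had another probe set to try.

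The number of probe sets called moved more. In the null mutant it was 173, and 113 without an intensity trend, 61 without the arrays titled rpt, 58 with only 6 arrays, 57 without double transformant 3 and null mutant 3, and 73 to 339 without single arrays. In the substitution group it was 170, and 88 without a trend, 373 with array weights, 370 without the arrays titled rpt, 73 without double transformant 3 and null mutant 3, and 46 to 212 without single arrays. Without the arrays titled rpt the calls there were 175 higher and 195 lower, against 141 and 29. The replicate block gave 321 calls there, 210 higher and 111 lower, and 176 in the null mutant, and changed no call of an alpha-expansin. Between the mutants 9 were called, and 5 with median centring or the rpt block, 18 without the arrays titled rpt, 4 with only 6 arrays, 0 to 48 without single arrays, and by limma 0 without a trend (1344 at an unadjusted p under 0.05) or without double transformant 3 and null mutant 3 (1121).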
